A study of Mus musculus with 28 samples.

Results

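The members are the 10 genes of the Toll-like receptor family whose symbols were listed for this description: Tlr1, Tlr2, Tlr3, Tlr4, Tlr5, Tlr6, Tlr7, Tlr8, Tlr9 and Tlr13. They were found by gene symbol, and all 10 were present, each once, among the 47719 genes of each of the authors' 10 deposited tables. The tables compare liver samples of male C57BL/6 mice, 28 samples in all and 4 to each of 7 groups, the mice aged about 6 weeks at the start. Lean controls were kept on feed in which fat gave 10% of calories, without fructose or cholesterol. In the other 6 groups, nonalcoholic steatohepatitis (NASH), in which a fatty liver is inflamed, was induced over 26 weeks by feed in which fat gave 40% of calories and which held, by weight, 22% fructose and 2% cholesterol. For 4 further weeks, 4 of these groups received a daily oral agonist of FXR, the nuclear receptor for bile acids: obeticholic acid (OCA), a modified bile acid, at 25 mg/kg, or tropifexor (LJN452), which is not a bile acid. The tropifexor groups are named low, mid and high, and were taken to have received 0.1 mg/kg, 0.3 mg/kg and 0.9 mg/kg respectively, a rising order that the labels leave unstated. The remaining 2 NASH groups were the vehicle groups of OCA and of tropifexor by their sample titles, although their treatment field lists the drug.

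Toll-like receptors are membrane proteins of immune cells and of some epithelial and parenchymal cells that recognise molecules of microbes and of damaged cells. Some act at the cell surface and others in endosomes. Ligand binding recruits the adaptors MyD88 or TRIF, which lead to NF-kB, to interferon regulatory factors and to the transcription of cytokines and chemokines. In the liver, which receives blood from the gut, they are best known on Kupffer cells, the resident macrophages.

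Levels are given as FPKM, which corrects the fragments of a gene for transcript length and library size, as 1 value per group of 4 samples. The tables hold no value per sample, so whether the samples of 2 groups overlap cannot be read from them. A gene is called higher ("rose") or lower ("fell") where the authors' Cuffdiff q, the p adjusted over all tested genes, was under 0.05, and every percentage of called genes beside a count is the share among all genes tested in that table. The smallest Cuffdiff p in every table was 5e-05, so each table has a smallest possible q, from 0.000346 to 0.00268. A q at that floor does not rank genes or doses. The standard error (SE) beside a log2 fold change was derived from the authors' fold change and test statistic and rescaled to their p. In a whole-liver sample, fewer cells of a type and less RNA per cell cannot be told apart.

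The 10 members split into 3 patterns. Tlr5 fell under every dose of tropifexor, by 51.0-fold at the high dose in the authors' deposited table. Tlr12, a family gene outside the list of members, also fell at every dose. Its log2 changes were -2.07, -2.17 and -2.72, low dose first (the authors' deposited tables). Tlr3 rose under every dose and was not called with the diet. The other 8 members lay higher on the NASH diet, 5 of them called in both vehicle groups, and all 8 fell at the mid dose of tropifexor.

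Tlr5, the receptor of bacterial flagellin, had the highest level of the family in lean liver, at 5.17 to 5.84 FPKM over the 6 tables that hold the lean group (the authors' deposited tables were each scaled separately). The gene (ENSMUSG00000079164) lies on chromosome 1 of GRCm38, positions 182954788 to 182976044, on the plus strand, and overlapped no other gene of the tables. With OCA vehicle it stood at 7.50 FPKM and with tropifexor vehicle at 7.73, by the authors' deposited tables against lean control. In the authors' deposited tables of the treated groups against lean control it stood at 4.61 FPKM under OCA, 0.870 under low, 0.590 under mid and 0.144 under high tropifexor. Both vehicle groups were thus above lean, OCA was near lean, and the tropifexor groups were far below.

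Against its own vehicle, Tlr5 went from 7.99 to 4.95 FPKM under OCA, a fall of 1.61-fold (log2 -0.69, SE 0.162, q = 0.00268, the authors' deposited table). Under low tropifexor it went from 8.80 to 0.950 FPKM, 9.26-fold lower (log2 -3.21, SE 0.303, q = 0.000968, the authors' deposited table). The mid dose took it from 7.69 to 0.639 FPKM, 12.0-fold lower (log2 -3.59, SE 0.251, q = 0.000361, the authors' deposited table). At the high dose it went from 8.0 to 0.157 FPKM, 51.0-fold lower (log2 -5.67, SE 0.428, q = 0.000396, the authors' deposited table). Because the last level is so low, the size of this fold depends on the scale: with 1 FPKM added to both groups the high-dose log2 change was -2.96, and with 0.1 added it was -4.98. The diet effect was small, with log2 changes of 0.43 (q = 0.0385) and 0.47 (q = 0.0330) in the OCA and tropifexor vehicle groups of the authors' deposited tables.

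The tropifexor effect on Tlr5 was larger than that of OCA, at doses that differ between the compounds. The difference of the log2 effects was -4.98 for high tropifexor less OCA (95% interval -6.80 to -3.16) and -2.90 for mid less OCA (interval -4.09 to -1.71), and both passed the normal test of the difference, adjusted over all genes. Such differences were called for 1.69% and 1.49% of all genes, and Tlr5 was the only member called in either. With the rescaled error, 11.5% and 12.1% of genes were called, and the members were Tlr3 and Tlr5 at the high dose and Tlr1, Tlr2, Tlr3 and Tlr5 at the mid dose. For low less OCA the difference was -2.52 (interval -3.90 to -1.14), which missed the adjusted threshold with the wider error implied by the test statistic and passed with the rescaled error (0.419% and 5.24% of all genes called; Tlr2 and Tlr3 also passed with the latter). Between doses, high less low was -2.46 (interval -4.56 to -0.37) and high less mid was -2.08 (interval -4.06 to -0.11), each called with the rescaled error alone, which called 5.64% and 2.33% of all genes where the implied error called 0.278% and 0.319%. Mid less low, -0.38 (interval -1.95 to 1.20), was called with neither. In the order of levels, lean and OCA (log2 -0.25, q = 0.377, the authors' deposited table) and low and mid tropifexor are thus neighbours without a called difference.

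**Figure D1:**
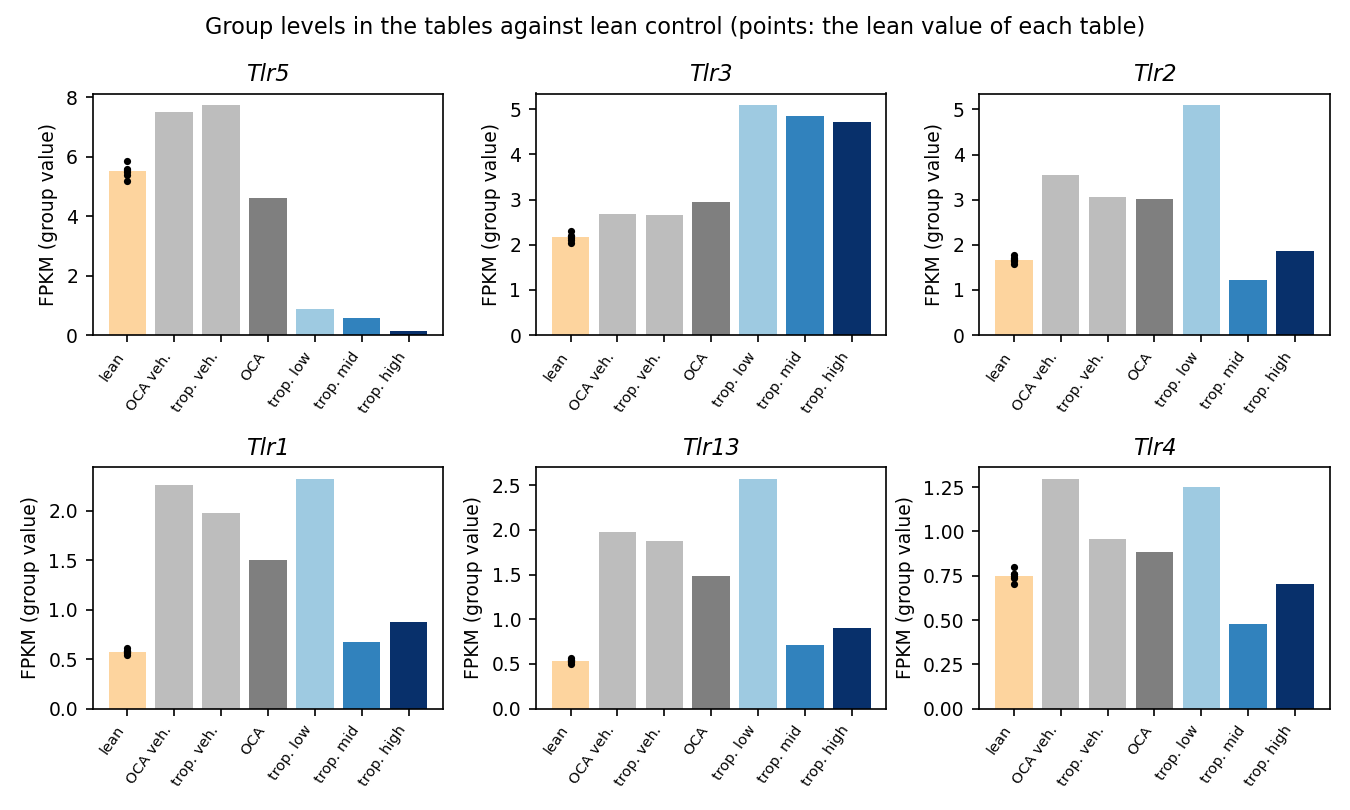
FPKM (vertical axis) of 6 members in the 7 groups (horizontal axis; veh. is vehicle, trop. is tropifexor). Bars are the group value in the table against lean control, the lean bar is the mean of the 6 lean values shown as points, and no error over samples is available. Tlr5 is at 0.870 FPKM or below in the 3 tropifexor groups, Tlr3 is at 4.71 or above there, and the other 4 genes peak in a vehicle group or at the low dose.

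Markers of hepatocytes, the main cells of the liver, are given beside Tlr5. Of 6 hepatocyte genes, 2 fell and 0 rose at the low dose, 2 rose and 1 fell at the mid dose and 2 rose and 2 fell at the high dose, where 11.2%, 27.5% and 25.4% of all tested genes were called. Their summed level went from 48716 to 50189 FPKM at the low, from 42572 to 50264 FPKM at the mid and from 44302 to 43441 FPKM at the high dose in the authors' deposited tables. Of 6 sinusoidal endothelial genes, 1 fell at the low, 4 at the mid and 3 at the high dose. Their sums, vehicle first, were 79.9 against 58.4 FPKM at the low, 69.8 against 57.2 at the mid and 72.7 against 61.4 at the high dose (the authors' deposited tables). Which cells carried the Tlr5 transcripts was not tested.

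Tlr3, the endosomal receptor of double-stranded RNA that signals through TRIF, was the member that rose under tropifexor at all doses. The gene (ENSMUSG00000031639) lies on chromosome 8, positions 45395665 to 45410608 in the tables, on the minus strand. It stood at 2.03 to 2.30 FPKM in the lean group, at 2.67 and 2.65 in the OCA and tropifexor vehicle groups and at 2.95 under OCA, per the authors' deposited tables against lean control. It stood at 5.09, 4.85 and 4.71 FPKM under low, mid and high tropifexor in the authors' deposited tables against lean control. The lean, vehicle and OCA groups lay below the 3 tropifexor groups, which lay together. OCA was called higher than lean (log2 0.45, SE 0.133, q = 0.00868, the authors' deposited table).

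Against vehicle, Tlr3 rose by 0.88 (log2, SE 0.185, q = 0.000968) at the low, 0.99 (SE 0.140, q = 0.000361) at the mid and 0.90 (SE 0.138, q = 0.000396) at the high dose, by the authors' deposited tables. OCA gave 0.16 (SE 0.132, q = 0.932) in the authors' deposited table. The dose effects differed by 0.02 (high less low, 95% interval -0.90 to 0.95), 0.11 (mid less low, interval -0.82 to 1.04) and -0.09 (high less mid, interval -0.87 to 0.70), none called with either error. Tropifexor less OCA was 0.72 at the low, 0.83 at the mid and 0.75 at the high dose, called with the rescaled error and not with the implied error. The diet effects, 0.29 (q = 0.133) and 0.27 (q = 0.205) in the authors' deposited tables, were not called. Of 17 adaptor and kinase genes, Ticam1, which encodes TRIF, rose at the mid (0.57, SE 0.134) and the high dose (0.48, SE 0.133) in the authors' deposited tables. The others called there were Traf3 (-0.52, SE 0.211) and Ikbke (-0.46, SE 0.180), which fell at the mid dose. Ikbkb (0.55, SE 0.194) rose at the high dose (the authors' deposited tables). None of the 17 was called at the low dose. At the mid and high doses 27.5% and 25.4% of all tested genes were called, and the called part of this list was below these shares.

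The promoters of the 3 members called at the low dose are shown, Tlr5, which fell, and Tlr3 and Tlr2, which rose. Each is the 250 bases before the RefSeq start (build GRCm38.p6), written 5′ to 3′ on the strand of the gene, and capitals mark matches to 6 motifs searched on both strands: GAGGAA (the core of PU.1, a myeloid factor), AGGTCA (bound by many nuclear receptors), an inverted repeat of GGTCA with 1 base of any kind between the copies (known for FXR), GAAA repeated after 2 bases of any kind (interferon response), TGANTCA (AP-1) and the NF-kB motif.
Tlr5, chr1:182954538-182954787, plus strand: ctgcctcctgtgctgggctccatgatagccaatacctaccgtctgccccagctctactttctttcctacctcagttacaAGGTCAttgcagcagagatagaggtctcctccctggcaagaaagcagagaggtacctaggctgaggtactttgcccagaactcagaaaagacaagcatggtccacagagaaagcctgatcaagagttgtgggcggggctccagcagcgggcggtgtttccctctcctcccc
Tlr3, chr8:45410381-45410630, minus strand: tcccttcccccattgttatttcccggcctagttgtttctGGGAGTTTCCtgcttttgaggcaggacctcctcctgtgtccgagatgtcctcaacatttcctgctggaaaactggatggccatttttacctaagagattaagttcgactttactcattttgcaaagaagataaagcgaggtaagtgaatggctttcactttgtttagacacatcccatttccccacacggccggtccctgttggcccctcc
Tlr2, chr3:83841609-83841858, minus strand: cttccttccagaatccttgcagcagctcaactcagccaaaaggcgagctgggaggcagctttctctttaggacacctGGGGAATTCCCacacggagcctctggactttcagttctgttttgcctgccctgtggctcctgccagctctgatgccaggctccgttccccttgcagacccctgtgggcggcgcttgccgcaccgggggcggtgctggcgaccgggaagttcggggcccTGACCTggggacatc
The Tlr5 promoter held AGGTCA, ending 165 bases before the start, and the Tlr3 promoter held the NF-kB motif, ending 201 bases before it. The Tlr2 promoter held a pair of overlapping NF-kB matches and AGGTCA on the other strand, ending 9 bases before the start. The windows of Tlr3 and Tlr2 overlap the genes themselves, whose spans in the authors' deposited tables reach positions 45410608 and 83841767. The Tlr3 match and the AGGTCA match of Tlr2 lie inside these spans. The FXR inverted repeat was in 0 of the 10 promoters found for 8 of the members (Tlr4 and Tlr7 had no entry), and in 0.0335% of all 32851 promoters. AGGTCA was in 3 of the 10 member promoters and in 14.0% of all promoters of this length, and the NF-kB motif in 2 of 10 and in 7.25% of all. These matches describe letters in a window and show neither binding nor a cause.

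Tlr2, Tlr1 and Tlr6 encode the surface receptors of bacterial lipoproteins; TLR2 pairs with TLR1 or TLR6. Tlr2 stood at 1.57 to 1.78 FPKM in lean liver, at 3.56 and 3.05 in the OCA and tropifexor vehicle groups and at 3.01 under OCA, by the authors' deposited tables against lean control. It reached 5.10 FPKM at the low dose of tropifexor and stood at 1.22 at the mid and 1.85 at the high dose in the authors' deposited tables against lean control. The low-dose group was thus the highest of all and the mid-dose group the lowest. With the diet Tlr2 rose by 1.07 (SE 0.140, q = 0.000588) and 0.84 (SE 0.154, q = 0.000507) in the OCA and tropifexor vehicle groups of the authors' deposited tables. Against vehicle it rose by 0.68 at the low dose (SE 0.193, q = 0.00845) and fell at the mid (-1.20, SE 0.162, q = 0.000361) and high dose (-0.65, SE 0.158, q = 0.000396), by the authors' deposited tables. Mid less low was -1.88 (95% interval -2.89 to -0.87) and high less low was -1.32 (interval -2.32 to -0.33), both called with the rescaled error and not with the implied error. Mid less low was called for 10.3% of all genes with the rescaled and 0.424% with the implied error, and Tlr1 (-1.61), Tlr4 (-1.20), Tlr9 (-1.49) and Tlr13 (-1.66) were also called with the rescaled error. Under OCA, Tlr2 stood at -0.23 (q = 0.654) in the authors' deposited table.

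Tlr1 had the largest diet effect of the family by log2 fold change in the OCA vehicle group, where it went from 0.578 to 2.26 FPKM, a rise of 3.91-fold (log2 1.97, SE 0.200, q = 0.000588, the authors' deposited table). In the tropifexor vehicle group it went from 0.581 to 1.98 FPKM (log2 1.77, SE 0.220, q = 0.000507, the authors' deposited table). It was 1 of 2 members called under OCA, with Tlr5, going from 2.41 to 1.62 FPKM (log2 -0.58, SE 0.179, q = 0.0286, the authors' deposited table). Low tropifexor left it at 0.17 (q = 0.826), while it fell at the mid (-1.44, SE 0.210, q = 0.000361) and high dose (-1.10, SE 0.217, q = 0.000396), by the authors' deposited tables. Tlr6 was at or under 0.561 FPKM in every group of every table and was called once, at the mid dose, with 0.435 against 0.186 FPKM (log2 -1.22, SE 0.436, q = 0.00393, the authors' deposited table).

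Values of Tlr1 and Tlr6 are uncertain because the genes are neighbours with partly identical coding sequence. Tlr1 lies on chromosome 5, positions 64924679 to 64933563, and Tlr6 at 64952031 to 64960097, both on the minus strand. Of all stretches of 50 bases in the coding sequence, 19.4% of those of Tlr1 and 19.2% of those of Tlr6 were also in the other gene (GENCODE M21 transcripts), and for each of the other 8 members 0% were in any other Toll-like receptor. The sources used here do not give how reads from such stretches were assigned. The longest identical run, of 229 bases, is shown because reads from it cannot be told apart.
Tlr1 chr5:64925537-64925765 and Tlr6 chr5:64953828-64954056, minus strand: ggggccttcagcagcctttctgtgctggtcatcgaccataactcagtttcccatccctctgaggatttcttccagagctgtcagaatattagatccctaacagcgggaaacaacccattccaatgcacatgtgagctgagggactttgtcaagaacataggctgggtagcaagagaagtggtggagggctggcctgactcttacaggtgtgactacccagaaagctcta

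Tlr4, the receptor of lipopolysaccharide, stood at 0.706 to 0.797 FPKM in lean liver and at 1.30 and 0.960 FPKM in the OCA and tropifexor vehicle groups, by the authors' deposited tables against lean control. Neither diet effect was called: they were 0.78 (SE 0.313, q = 0.0555) and 0.33 (SE 0.331, q = 0.499) in the authors' deposited tables. Tlr4 fell at the mid dose, from 0.954 to 0.518 FPKM (log2 -0.88, SE 0.278, q = 0.00342), and stood at -0.37 (q = 0.411) at the high and 0.32 (q = 0.579) at the low dose in the authors' deposited tables. Its partners are given beside it, and no difference between the genes was tested. Cd14, which hands lipopolysaccharide to the receptor, rose with the diet (1.67 and 1.83) and at the low dose (1.49), and fell at the mid (-1.46) and high dose (-0.83), by the authors' deposited tables. Ly96, which encodes MD-2, the binding partner of TLR4, fell at the mid dose (-0.58, q = 0.0156), and Lbp, the lipopolysaccharide-binding protein of serum, rose at the high dose (0.92), by the authors' deposited tables.

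The endosomal receptors of single-stranded RNA and DNA came next. Tlr8 and Tlr7 are neighbours on the X chromosome, at 167242696 to 167264329 and 167304929 to 167330558, minus strand. Tlr13, a mouse receptor of bacterial ribosomal RNA, is on X at 106143204 to 106160493, plus strand, and Tlr9, the receptor of unmethylated CpG DNA, on chromosome 9 at 106222598 to 106226883, plus strand. Tlr13 went from 0.541 to 1.97 FPKM with OCA vehicle (log2 1.87, SE 0.316, q = 0.000588) and from 0.544 to 1.88 with tropifexor vehicle (log2 1.79, SE 0.346, q = 0.000507), by the authors' deposited tables. Tlr9 went from 0.256 to 0.764 FPKM (log2 1.58, SE 0.225) and from 0.258 to 0.659 FPKM (log2 1.36, SE 0.240) in the same order, both called in the authors' deposited tables. Tlr8 rose by 1.27 (q = 0.0102) and 1.16 (q = 0.0261), while Tlr7, a receptor of single-stranded RNA, stood at 0.78 (q = 0.282) and 0.44 (q = 0.560), by the authors' deposited tables.

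Under tropifexor these 4 genes shared a direction at the upper doses. At the mid dose Tlr9 went from 0.657 to 0.232 FPKM (q = 0.000361, the authors' deposited table). There, too, Tlr8 fell by 1.33 (SE 0.329), Tlr13 fell by 1.27 (SE 0.265) and Tlr7 fell by 1.04 (SE 0.563), on the log2 scale of the authors' deposited table. At the high dose Tlr9 fell by 1.04 and Tlr13 fell by 0.98, Tlr8 went from 1.94 to 0.972 FPKM (q = 0.0373), and Tlr7 stood at -0.55 (q = 0.313), in the authors' deposited table. At the low dose none of the 4 was called; Tlr13 stood at 0.39 (q = 0.317) and Tlr8 at -0.29 (q = 0.648) in the authors' deposited table. Under OCA all 4 lay below vehicle without a call, from -0.63 for Tlr9 (q = 0.0789) to -0.32 for Tlr7 (q = 0.999), in the authors' deposited table. The rescaled error of Tlr7 is wide for its q, since the deposited p comes from Cuffdiff's own test and the rescaling is that of the median gene.

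Promoters of Tlr1, Tlr13 and Tlr9 are shown as examples, chosen because they hold GAGGAA, ending 17, 77 and 106 bases before the start. These genes rose with the diet and fell at the upper doses. So did Tlr8, whose promoter also holds GAGGAA and is not shown. The other RefSeq start of Tlr1 (chr5:64932700-64932949) does not hold GAGGAA, nor does the promoter of Tlr2, which was called in the same directions in these tables.
Tlr1, chr5:64933559-64933808, minus strand: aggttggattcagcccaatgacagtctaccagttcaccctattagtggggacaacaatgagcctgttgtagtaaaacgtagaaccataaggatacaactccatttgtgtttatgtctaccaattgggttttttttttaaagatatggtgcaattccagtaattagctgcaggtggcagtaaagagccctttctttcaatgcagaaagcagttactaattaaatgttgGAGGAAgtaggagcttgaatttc
Tlr13, chrX:106143025-106143274, plus strand: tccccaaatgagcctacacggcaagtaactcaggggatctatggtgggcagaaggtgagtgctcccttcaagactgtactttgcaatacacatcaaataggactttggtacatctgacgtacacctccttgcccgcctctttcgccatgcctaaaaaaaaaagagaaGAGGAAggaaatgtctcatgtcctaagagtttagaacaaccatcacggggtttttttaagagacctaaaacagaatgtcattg
Tlr9, chr9:106222348-106222597, plus strand: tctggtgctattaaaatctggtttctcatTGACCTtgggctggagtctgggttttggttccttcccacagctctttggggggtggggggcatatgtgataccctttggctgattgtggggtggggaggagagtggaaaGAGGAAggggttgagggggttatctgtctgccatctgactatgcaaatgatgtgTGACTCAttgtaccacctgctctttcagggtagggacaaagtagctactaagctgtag
GAGGAA was in 4 of the 10 member promoters, the fourth being that of Tlr8, and in 23.3% of all promoters. The Tlr9 promoter also held AGGTCA on the other strand and the AP-1 motif, which was in 6.75% of all promoters. The interferon motif was in 1 of 10 (a Tlr6 start, with a window inside the span of the gene) and in 2.98% of all. These matches, too, show neither binding nor a cause, and a link between GAGGAA and the changes was not tested.

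Counted over the family, 6 of 10 tested members rose and 0 fell in each vehicle group against lean control: Tlr1, Tlr2, Tlr5, Tlr8, Tlr9 and Tlr13. Of all tested genes, 18.0% were called in the OCA vehicle table (11.4% higher, 6.56% lower) and 20.6% in the tropifexor vehicle table (12.1% higher, 8.53% lower). All 10 log2 changes were above 0 in both, with medians of 0.93 and 0.72 against 0.02 and 0.01 over all tested genes in the authors' deposited tables. None of the 10 diet effects differed between the vehicle groups by the test of the difference, which called 0.0986% of all genes with the implied and 0.381% with the rescaled error, and all 10 intervals held 0. At an unadjusted p under 0.05, 8 and 6 of the 10 members were past it.

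**Figure D2:**
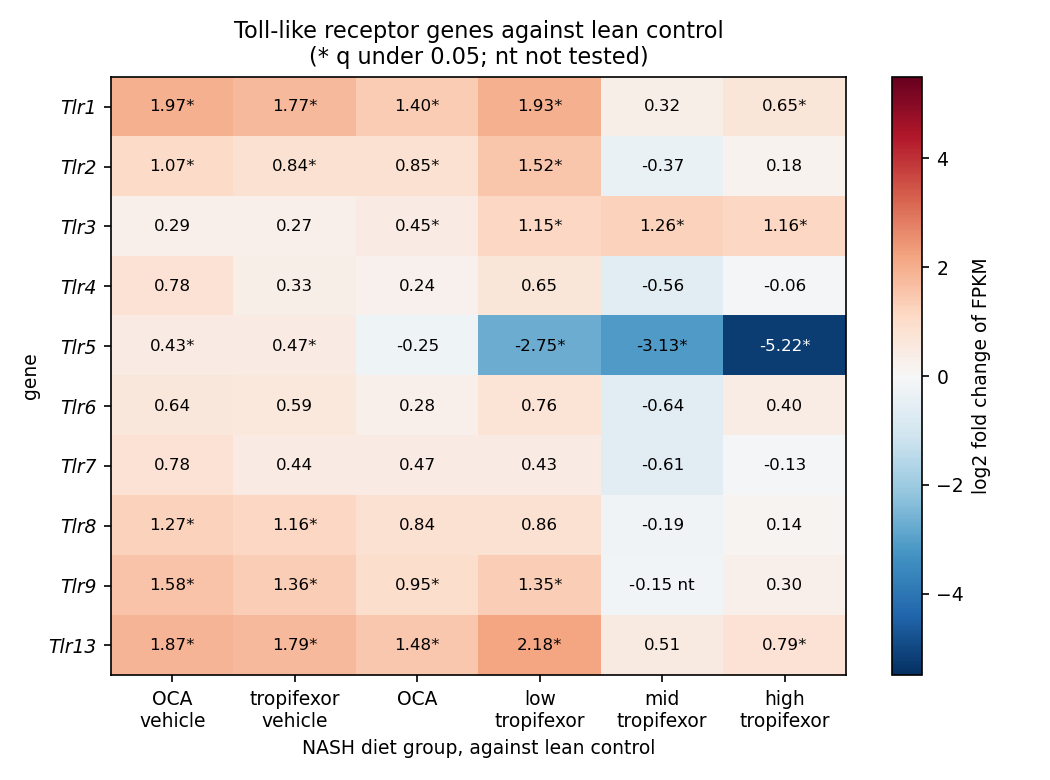
Log2 fold change of FPKM against lean control for the 10 members (rows) in the 6 NASH diet groups (columns), with the colour scale at the right. The tropifexor columns set Tlr5, down to -5.22, and Tlr3, up to 1.26, apart from the other rows.

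OCA against its vehicle gave 2 falls among the 10 members, against 2.23% of all genes called lower, and 0 rises, against 1.81% called higher (4.04% in all). Of the 10 log2 changes 9 were below 0, with a median of -0.41 (all tested genes -0.01, the authors' deposited table). Low tropifexor gave 2 rises (Tlr2 and Tlr3; 6.03% of all genes) and 1 fall (Tlr5; 5.2% of all genes, 11.2% in both directions), with a median of 0.17 against 0.00 over all genes. Mid tropifexor gave 9 falls and 1 rise, so that all 10 members were called, where 15.7% of all genes were lower and 11.8% higher (27.5% in all), and the median was -1.25 against -0.01. High tropifexor gave 6 falls and 1 rise, where 15.5% of genes were lower and 9.93% higher (25.4% in all), and the median was -0.81 against -0.05. The 3 without a call at the high dose were Tlr4, Tlr6 and Tlr7. For every falling member except Tlr5 the log2 change was larger in size at the mid than at the high dose, but the test of high less mid called none of these 8 with either error.

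**Figure D3:**
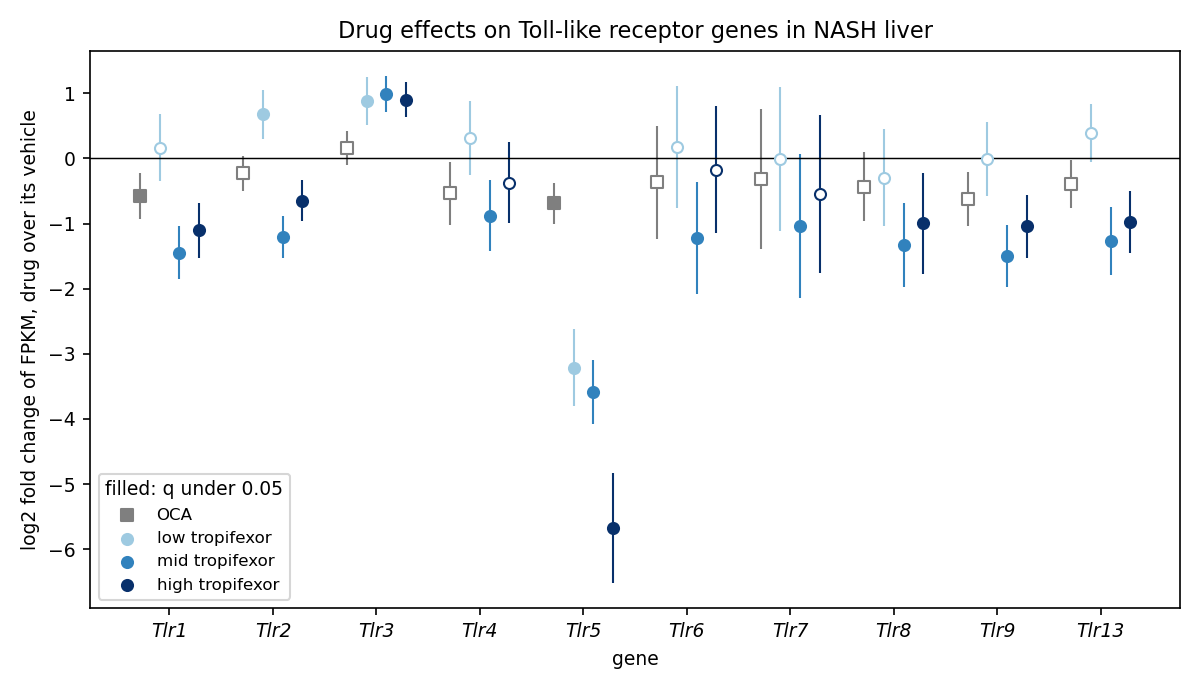
Log2 fold change of FPKM, drug over its own vehicle (vertical axis), for the 10 members (horizontal axis). Squares are OCA and circles tropifexor, filled symbols have a q under 0.05, and bars are 95% intervals from the rescaled standard error; at the mid dose all 10 symbols are filled, and Tlr3 is the sole member above 0 there.

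The treated groups were also compared with lean control directly. Under OCA 5 members were higher (Tlr1, Tlr2, Tlr3, Tlr9 and Tlr13; 10.3% of all genes) and 0 lower (6.5% of genes, 16.8% in all). At the low dose 5 were higher (the same 5 symbols; 13.8% of genes) and Tlr5 was lower (10.1% of genes, 23.8% in all). At the mid dose 9 members were tested, Tlr9 being too low, and Tlr3 was higher (11.7% of genes) and Tlr5 lower (11.5% of genes, 23.1% in all). At the high dose Tlr1 (0.65, q = 0.0182), Tlr3 and Tlr13 (0.79, q = 0.0306) were higher (12.2% of genes) and Tlr5 lower (15.2% of genes, 27.3% in all), by the authors' deposited table. These comparisons share the lean samples.

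**Figure D4:**
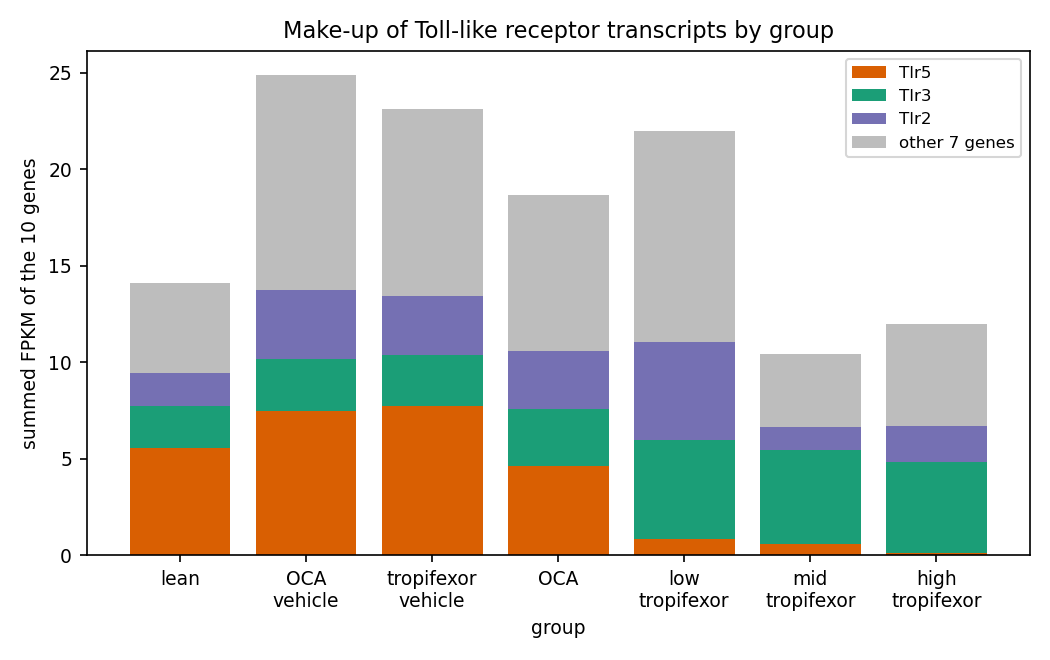
Summed FPKM of the 10 members (vertical axis) in each group (horizontal axis), by gene, from the tables against lean control (lean from the OCA vehicle table). The sum is 14.1 FPKM in lean, 24.9 and 23.1 in the vehicle groups and 10.4 and 12.0 at the mid and high doses, and Tlr5 makes 39.4% of it in lean and 1.20% at the high dose.

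The sum and its make-up both differed between groups. Tlr5 made 39.4% of the summed FPKM in lean liver, 33.4% in the tropifexor vehicle group and 3.96%, 5.65% and 1.20% at the low, mid and high dose, by the authors' deposited tables. Tlr3 made 15.5% in lean, 11.5% in the tropifexor vehicle group and 23.2%, 46.4% and 39.3% at the 3 doses, in the authors' deposited tables. Without Tlr5, the sum was 17.5 FPKM in vehicle and 23.0 at the low dose, 15.3 and 10.7 at the mid dose, and 15.9 and 12.9 at the high dose, each pair from the authors' deposited table of that dose.

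Markers of several cell types changed in the same tables as the members. Of all tested genes, 18.0% and 20.6% were called in either direction in the OCA and tropifexor vehicle tables. The share was 4.04% under OCA, and 11.2%, 27.5% and 25.4% at the low, mid and high doses. Of 13 macrophage markers, the OCA vehicle group had 10 higher and 1 lower than lean, and the tropifexor vehicle group 9 higher and 1 lower. Their summed level went from 220 to 493 and from 221 to 473 FPKM in the authors' deposited tables. Against vehicle, 5 fell under OCA, 1 at the low, 11 at the mid and 8 at the high dose, and 0 rose in these 4 tables. Their sums went from 525 to 369 under OCA, from 539 to 521 at the low, from 471 to 230 at the mid and from 490 to 324 FPKM at the high dose, in the authors' deposited tables. At the low dose Tlr2 rose while 0 of these markers did. There, of 5 neutrophil markers 3 were tested and 0 called, with 2 at an unadjusted p under 0.05 (Cuffdiff). The median log2 change of the tested neutrophil markers was 0.77. The summed level of the list went from 10.0 to 17.5 FPKM in the authors' deposited table. Under OCA, where 5 macrophage markers fell, Tlr1 and Tlr5 were the members called. Of 6 stellate cell markers, 2 and 3 rose in the OCA and tropifexor vehicle tables, 0 were called under OCA (1 at an unadjusted p under 0.05, Cuffdiff), 2 fell at the low dose and 5 fell at the mid and at the high dose. Of 5 tested T and NK cell markers, 3 rose in each vehicle table, 3 fell under OCA, 3 at the mid and 4 at the high dose. Of 5 cholangiocyte markers, 2 rose and 1 fell in each vehicle table, 2 rose under OCA, 4 rose at the low dose, 2 fell at the mid and 1 at the high dose. Spi1, which encodes PU.1, rose with the diet by 1.43 (SE 0.204) and 1.32 (SE 0.221) and fell at the mid (-1.19, SE 0.222) and high dose (-0.84, SE 0.230), in the authors' deposited tables. Of 5 neutrophil markers 3 were tested and 2 fell at the mid dose, with Ly6g at 0 in both groups. Of 5 B cell markers 4 were tested and 0 were called at the mid dose by Cuffdiff, with 0 at an unadjusted p under 0.05, and of 7 dendritic cell markers 5 were tested and 3 fell. At the low dose 1 of 5 tested B cell markers fell. There, 0 of 6 tested T and NK cell markers and 0 of 6 tested dendritic cell markers were called (0 at an unadjusted p under 0.05, Cuffdiff). The part of cell numbers in the changes of the receptors was not tested.

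Genes that act with the receptors were listed by role. Beside their counts stand the shares of all tested genes called in either direction: 18.0% and 20.6% in the OCA and tropifexor vehicle tables, 4.04% under OCA, and 11.2%, 27.5% and 25.4% at the low, mid and high doses. Of 7 co-receptor and ligand transfer genes, 4 rose in each vehicle group, 1 fell under OCA, 1 rose at the low dose, 4 fell at the mid dose, and 5 fell and 1 rose at the high dose; Cd180, a surface regulator of TLR4, and its partner Ly86 were at -1.55 and -1.41 at the mid dose (the authors' deposited table). Of 8 folding, trafficking and processing genes in the tables, 4 rose in each vehicle group, 1 fell under OCA, 0 were called at the low dose (0 also at an unadjusted p under 0.05, Cuffdiff), and 4 and 3 fell at the mid and high doses. Among these, Unc93b1, the escort of endosomal receptors, was at 0.55 and 0.46 with the diet and at -0.67 and -0.47 at the mid and high doses, and Ctss, a protease of endosomes, at 1.74, 1.77, -1.56 and -1.10, all called in the authors' deposited tables. Of 17 adaptor and kinase genes, the diet raised 2 and lowered 2 by the OCA vehicle table and raised 1 and lowered 1 by the tropifexor vehicle table, while 1 rose and 2 fell at the mid and 2 rose at the high dose. None of the 17 was called under OCA or at the low dose (0 and 2 at an unadjusted p under 0.05, Cuffdiff). In the tropifexor vehicle, mid-dose and high-dose tables, the called part of this list was below the share over all genes.

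Downstream, of 16 genes known to be induced through the receptors 9 were tested in each diet table, and 7 (OCA vehicle) and 8 (tropifexor vehicle) rose. Of 9 tested, 3 fell under OCA and 8 fell at the mid and at the high dose, while of 11 tested at the low dose 2 rose. Cxcl1, a neutrophil chemokine, fell by 2.07 (SE 0.181) at the mid and by 2.03 (SE 0.184) at the high dose in the authors' deposited tables. Ccl3 and Ccl4, chemokines of macrophages and T cells, were at -1.73 and -2.02 at the mid and at -1.71 and -1.56 at the high dose in the authors' deposited tables. Of 8 tested inhibitors of the pathway, the vehicle groups had 2 higher (OCA) and 3 higher with 1 lower (tropifexor), 1 rose at the low dose, 3 fell at the mid dose, and 1 rose and 2 fell at the high dose, with 0 called under OCA (1 at an unadjusted p under 0.05, Cuffdiff). Tnip1, a partner of A20, rose with the diet by 0.62 and 0.63 in the authors' deposited tables. It also rose by 1.17 (q = 0.000968) at the low and by 0.64 (q = 0.000396) at the high dose in the authors' deposited tables. Tnfaip3, which encodes A20, was at 0.84 and 1.01 with the diet in the authors' deposited tables. It fell at the mid (-1.15) and the high dose (-0.55, q = 0.0169), by the authors' deposited tables. Of 9 transcription factors, 2 rose in each vehicle group (Spi1 and Nfkb2), 0 were called under OCA (1 at an unadjusted p under 0.05, Cuffdiff), 1 rose at the low dose, and 1 rose and 1 fell at the mid and at the high dose. At the mid dose Irf7, of the interferon response, rose by 0.66 (q = 0.0141) in the authors' deposited table.

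Likeness of pattern was measured as the Euclidean distance over the 6 log2 changes against lean control, among 14510 genes tested in all 6 tables, which share the lean samples. Tlr9 was not tested in all 6 and has no distance. The 2 nearest genes to Tlr5 were Dio1, a deiodinase of the liver, at a distance of 0.98 and Fgl1 at 1.31. The nearest to Tlr3 were Dgkd (0.19) and Csrp2 (0.23). Tlr8 was nearest to Laptm5 (0.09), a lysosomal protein of blood cells, and Arhgap9 (0.20), and Tlr1 to Ctss (0.25) and Pla2g7 (0.31). Tlr13 was nearest to Ms4a6c (0.23) and Myof (0.35), Tlr2 to Tnfsf13b (0.26) and Abr (0.26), Tlr4 to Calhm2 (0.30) and Mamld1 (0.31), Tlr6 to Mvb12b (0.34) and Zfp52 (0.35), and Tlr7 to Batf3 (0.25) and Mamld1 (0.26). Within the family, the closest pairs were Tlr4 with Tlr7 (0.34) and Tlr1 with Tlr13 (0.37), and Tlr5 lay 6.56 or more from every other member.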

How the data were processed

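RNA of 28 mouse liver samples was sequenced from stranded poly(A) libraries (TruSeq Stranded mRNA), per the labels' protocols. STAR 2.5.1b, Cufflinks 2.2.1, Cuffnorm and Cuffdiff and the build GRCm38 are named per the submitters' processing notes, without role or order. The FPKM values were deposited as Cuffdiff output, 1 per group of 4, and scaled in each table. The log2 fold changes, the test statistic (a score), the p-value and the q-value are the authors' deposited values, per the file headers. Depth per sample is unknown. Each table tested from 15208 to 16144 genes.

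The members and lists were chosen with earlier results of these data known. Named genes are all 10 members, up to 4 genes of each pathway list by size of change in the diet tables or among those called in a drug table, and the 2 genes nearest to each member. Which vehicle each table used was checked on its values: a column deviated from its named vehicle group by a median of at most 0.00098 (log2) after a constant shift, and by at least 0.0914 from the other. Genes beyond an absolute log2 change of 20, or whose fold change differed from the FPKM ratio by 0.01 or more, were left out of derived errors.

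Effects were compared by the difference of log2 fold changes, with errors implied by fold change and test statistic, a normal test and Benjamini-Hochberg adjustment at 0.05 over all genes, in 7 comparisons, of which 2 (mid less low, high less mid) were added after seeing the data. The rescaled error divides by the median ratio of the normal z of the p-value to the statistic (2.03 to 2.05). Where 2 effects share a group, the lean samples or the tropifexor vehicle, the summed variance is conservative. A difference without a call therefore does not show that 2 effects are alike. The test was also run on simulated effects with planted differences. Their noise was independent and drawn from the rescaled error, so that run cannot show which error is right. Alternatives were a stricter q of 0.01, an FPKM floor of 1, pseudocounts of 0.1 and 1, centring, and the rescaled error. The labels number the samples as replicates without naming animals, so p-values measure the spread between these samples, which may be technical. Sequences are from RefSeq (GRCm38.p6) and GENCODE M21. Python 3.11.15, pandas 2.3.3, scipy 1.17.1 and matplotlib 3.10.9 were used.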

Additional observations from a re-analysis of the deposited data

Results flagged for a closer look

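The effect of tropifexor on Tlr5 differed from that of OCA by the test of the difference between the 2 compounds, adjusted over all genes. The difference (log2) was -4.98 at the high dose and -2.90 at the mid dose, each against OCA at 25 mg/kg. The effects were -5.67 and -3.59 for tropifexor and -0.69 for OCA in the authors' deposited tables. Each compound was compared with its own vehicle group, in which Tlr5 stood at 7.69 to 8.80 FPKM for tropifexor and 7.99 FPKM for OCA.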

How the results depend on the processing

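With a q under 0.01, the count of members called went from 2 to 1 for OCA against vehicle and from 4 to 2 for high tropifexor against lean control. The latter was also 2 with p adjusted over genes of at least 1 FPKM. In the other tables the count stayed within 1.5 times under these settings, with p adjusted over all tested genes and with centred fold changes. With the rescaled error, calls of differences went from 1 to 2 (high less OCA) and 4 (mid less OCA), and from 0 to 3 (low less OCA), 4 (high less low), 5 (mid less low) and 1 (high less mid). The rescaled error is the implied error divided by 2.03 to 2.05, so more differences pass with it. With an FPKM floor of 1, mid less low went from 0 to 1 (Tlr2). No log2 fold change of a called member reversed with a pseudocount or centring; adding 1 FPKM moved 49 of 100 values by more than their error, since most members are near or under 1 FPKM. No paired analysis was possible because the tables hold 1 value per group, and for the same reason no replicate could be left out.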

Other observations

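Tlr12 and Tlr11, the other mouse Toll-like receptors, are intact in mice and recognise profilin of protozoa. Tlr12 stood at 4.37 FPKM in the lean group of the OCA vehicle table, next to Tlr5 in the authors' deposited tables. It rose with the diet by 0.95 (SE 0.167, q = 0.000588) and 1.04 (SE 0.167, q = 0.000507) in the OCA and tropifexor vehicle groups and fell under tropifexor by 2.07 at the low, by 2.17 at the mid and by 2.72 at the high dose, all called in the authors' deposited tables. Under OCA it stood at -0.64 (q = 0.0669) in the authors' deposited table. The effects of high tropifexor and OCA differed by -2.08 (95% interval -3.37 to -0.80), called with the rescaled error and not with the implied error. Its nearest gene over the 6 tables against lean control was Fitm1, a lipid droplet protein, at a distance of 0.29. Tlr11 was under 0.32 FPKM in every group and fell under OCA (-1.04, q = 0.0224, the authors' deposited table).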
